A study of Mus musculus with 4 samples.

Results

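Mouse synovial fibroblasts given IL-1β for 6 h were compared with cells given vehicle, 1 array each of the 4 in the series, chosen by their titles. The cells came from the knee joints of male DBA/1J mice of 8 to 12 weeks without arthritis. They had been passaged 3 to 4 times and were kept in medium with 1% heat-inactivated FCS. IL-1β was given at 5 ng/ml. The remaining 2 dishes also received the cytokine, 1 together with the cyclooxygenase inhibitor indomethacin at 1 µM and 1 with the prostacyclin analogue iloprost at 1 µM added to both. Their signals are set beside those of the pair compared. Each treatment is 1 dish and 1 array, so there is no spread between dishes, no test and no p-value. How many animals stand behind a dish, and whether the dishes came from separate cultures, is not given in the sources used here. Of 12393 genes with a probe set of their own, 6964 had a signal above the floor on at least 1 of both arrays and are called measured. The floor was a signal of 37.6, the 50th percentile of all values.

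IL-1β is a cytokine that binds a receptor made of the chains Il1r1 and Il1rap. Through the adaptor Myd88 and the IRAK kinases it turns on NF-κB and the MAP kinases, which drive a fast wave of transcription followed by inhibitors that close the response. Synovial fibroblasts line the joint and make hyaluronan and lubricin for the joint fluid. In arthritis the same cells are a source of cytokines, prostaglandins and proteases that break down cartilage.

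A log2 ratio below is the log2 signal with IL-1β minus that with vehicle, less 0.21, the ratio of the median gene among 6222 genes above the floor on all 4 arrays. On the scale as deposited every ratio is therefore 0.21 higher. A gene whose signal reached only the floor on 1 of both arrays has a bound in place of a ratio, given with at least or at most. Probe sets of 1 gene differed in their ratios with an SD of 0.22 over 2377 genes, which covers noise within an array and not differences between dishes. Signals of different probe sets are not on 1 scale, so levels are compared within a gene.

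The cultures carried the defining genes of fibroblasts and also those of macrophages. All 17 fibroblast markers and all 24 macrophage markers were measured. The summed deposited signal of the macrophage markers was 42978 with vehicle and 49641 with IL-1β, and that of the fibroblast markers 29757 and 33686. These sums are not corrected for the brighter IL-1β array, on which the median gene was 0.21 higher in log2 signal. The sums of the marker sets are not on 1 scale and give no proportion of cells. Macrophage markers had ratios from -0.30 for Aif1 to 0.93 for the Fc receptor gene Fcgr3, with a median of -0.09, or 0.12 as deposited. Of 13 endothelial markers 12 were at the floor on both arrays, of 12 chondrocyte markers 11, of 9 adipocyte markers 7, of 9 lymphocyte markers 9 and of 11 neutrophil and mast cell markers 10. Which cell type gave the RNA of a gene was not tested, and in such a culture fewer cells of a type and less RNA per cell cannot be told apart.

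After the cytokine 124 of 6964 genes (1.78%) stood at least 2-fold above their vehicle level, and 37 (0.531%) at least 2-fold below, so that 77.0% of these genes were higher. On the scale as deposited the counts were 195 (2.8%) and 11 (0.158%), or 94.7% higher. The higher side also reached further. At least 4-fold higher were 32 genes (0.46%) and at least 8-fold higher 10 (0.144%), while no gene was 4-fold lower. At 1.5-fold the counts were 335 (4.81%) and 245 (3.52%). Because every ratio is 0.21 higher as deposited, all 124 higher genes necessarily stayed past 2-fold on that scale. Of the 37 lower genes 11 stayed past it. These 11 were Cxcl9, Snai2, Rspo2, Irs1, F3, Nudt13, Casp12, Ddit3, Pawr, Fzd2 and Dbp. Of the higher genes 33 are bounds, and of the lower genes 7. Such genes counted as measured only through the array on which they were bright, so the counts of groups below leave bounds out, unless they say measured, and name bounds apart. Of 6431 genes above the floor on both arrays 91 (1.42%) were at least 2-fold higher and 30 (0.466%) lower.

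**Figure D1:**
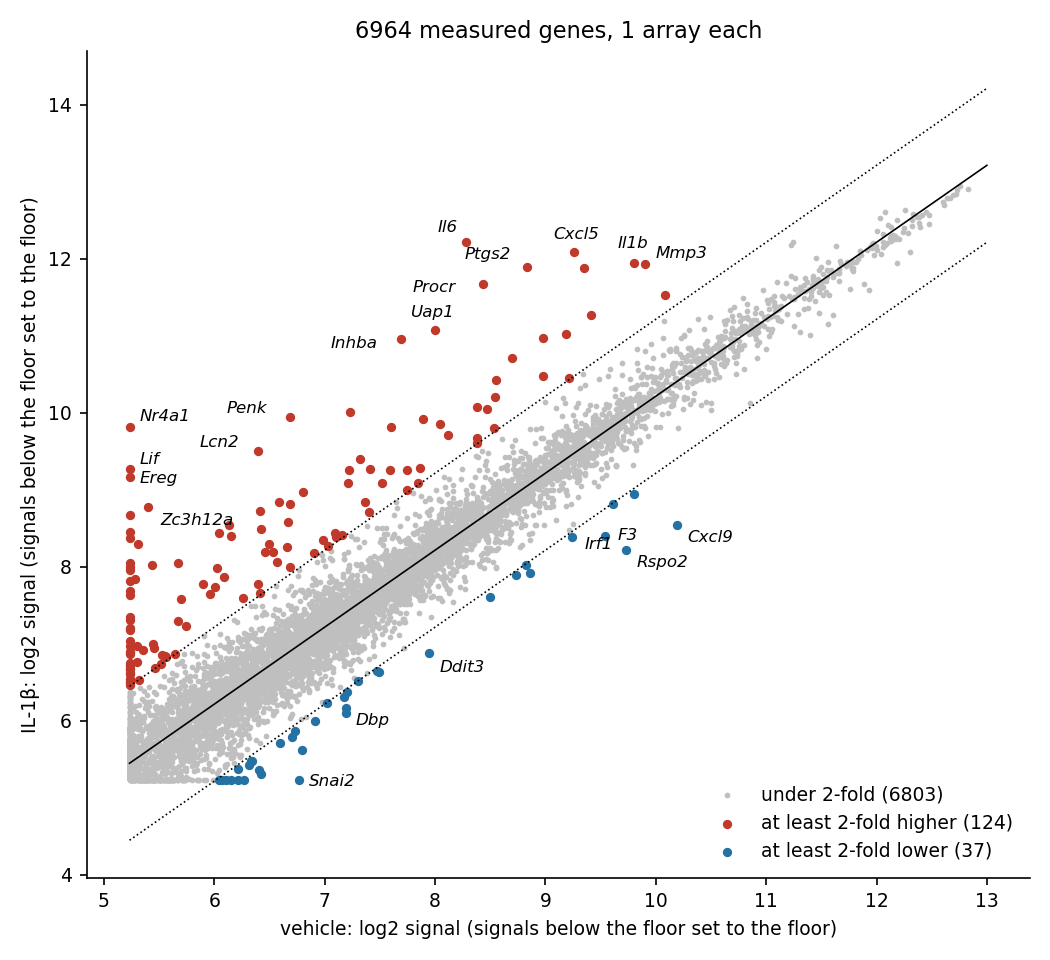
Each point is 1 of 6964 measured genes, with its log2 signal with vehicle on the x axis and with IL-1β on the y axis, signals below the floor set to the floor. The solid line is the median gene, the dotted lines mark a 2-fold difference from it, and the 124 higher genes (red) spread further from it than the 37 lower genes (blue).

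Among the genes with large ratios were Il6, Serpinb2, Inhba, Procr and Mmp10. Il6, an inflammatory cytokine of the acute phase, had signals of 312 under vehicle and 4757 under IL-1β, a log2 ratio of 3.72. Serpinb2, an inhibitor of urokinase, had signals of 12.5 under vehicle and 408 under IL-1β, a ratio of at least 3.23. Inhba, the subunit of activin A, had signals of 207 under vehicle and 1983 under IL-1β, a ratio of 3.05. Procr, the protein C receptor, had signals of 347 under vehicle and 3264 under IL-1β, a ratio of 3.02. Mmp10, a stromelysin, had signals of 14.6 under vehicle and 331 under IL-1β, a ratio of at least 2.93. The promoter windows of these 5 genes are printed because, among the genes with the largest ratios, they held the most kinds of 6 searched motifs, ties going to the larger ratio. Each window runs from 250 bases before to 50 bases after the start of the gene, from RefSeq on GRCm38.p6, 5′ to 3′ along the gene, and motif matches are in capitals. The windows are chr5:30012864-30013163 for Il6, chr1:107511173-107511472 for Serpinb2, chr13:16011601-16011900 for Inhba, chr2:155750967-155751266 for Procr and chr9:7502092-7502391 for Mmp10, all on the + strand.
Il6: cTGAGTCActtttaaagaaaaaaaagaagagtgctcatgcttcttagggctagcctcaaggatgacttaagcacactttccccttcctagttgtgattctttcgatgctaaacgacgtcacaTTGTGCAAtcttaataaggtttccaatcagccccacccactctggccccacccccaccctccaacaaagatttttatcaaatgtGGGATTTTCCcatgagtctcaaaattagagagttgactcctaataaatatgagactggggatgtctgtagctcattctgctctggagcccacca
Serpinb2: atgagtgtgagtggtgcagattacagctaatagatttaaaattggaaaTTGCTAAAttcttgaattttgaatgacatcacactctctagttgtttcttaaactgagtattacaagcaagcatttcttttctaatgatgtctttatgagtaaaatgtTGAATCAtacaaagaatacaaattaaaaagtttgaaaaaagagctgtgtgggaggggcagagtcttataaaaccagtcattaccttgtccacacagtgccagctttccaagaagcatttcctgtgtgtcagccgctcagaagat
Inhba: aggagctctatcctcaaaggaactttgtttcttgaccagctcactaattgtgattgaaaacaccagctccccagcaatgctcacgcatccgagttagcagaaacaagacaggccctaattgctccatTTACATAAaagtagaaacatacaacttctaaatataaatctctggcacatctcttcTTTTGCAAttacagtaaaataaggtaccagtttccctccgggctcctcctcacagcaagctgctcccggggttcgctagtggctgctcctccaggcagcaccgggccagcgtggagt
Procr: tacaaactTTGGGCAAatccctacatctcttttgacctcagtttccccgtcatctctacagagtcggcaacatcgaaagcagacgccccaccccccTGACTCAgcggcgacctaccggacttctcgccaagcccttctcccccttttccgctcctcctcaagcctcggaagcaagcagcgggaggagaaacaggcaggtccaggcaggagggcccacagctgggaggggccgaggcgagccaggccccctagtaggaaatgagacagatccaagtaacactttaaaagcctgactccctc
Mmp10: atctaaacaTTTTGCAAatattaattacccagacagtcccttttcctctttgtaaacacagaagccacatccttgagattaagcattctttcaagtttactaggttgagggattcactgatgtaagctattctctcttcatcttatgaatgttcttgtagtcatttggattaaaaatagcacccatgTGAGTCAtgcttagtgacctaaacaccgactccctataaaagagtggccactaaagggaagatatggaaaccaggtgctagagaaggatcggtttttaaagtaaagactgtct
The Il6 window held the kB motif (GGG, any 3 bases, TTCC), which NF-κB can bind, starting 44 bases before the gene's start. It also held the AP-1 motif TGANTCA and the C/EBP motif TTGCNNAA. The windows of Serpinb2, Procr and Mmp10 each held the AP-1 and the C/EBP motif. That of Inhba held the C/EBP motif and the D-box motif TTANGTAA. Matches on either strand count, and none of those printed overlaps another. A match is a description of these letters and not evidence of binding.

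The IL-1 receptor chains and adaptors above the floor on both arrays lay within 2-fold of the median gene. Of the 6 receptor genes on the array 3 were measured, 1 of them only as a bound of at least -0.06. All 6 adaptor and kinase genes on the array were measured. Il1r1, the signalling receptor chain, had signals of 102 under vehicle and 206 under IL-1β, a log2 ratio of 0.80, which is 1.02 and past 2-fold as deposited, and the co-receptor chain Il1rap stood at 0.36. The adaptors and kinases downstream had ratios from -0.40 for the kinase Irak1 to 0.10 for Tab2, with Myd88 at -0.19. Il1b, Il33 and Il1a, ligands of the IL-1 family, were higher. Il1b had signals of 894 under vehicle and 3952 under IL-1β, a ratio of 1.93, Il33 of 71.2 under vehicle and 338 under IL-1β, a ratio of 2.03, and Il1a of 23.8 under vehicle and 255 under IL-1β, a bound of at least 2.55. The receptor antagonist Il1rn stood at 0.32, and Casp1, the enzyme that cuts pro-IL-1β, at -0.40.

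Functional groups are described below by their counts and medians, beside 1.42% higher, 0.466% lower and a median of -0.0048 over all genes above the floor on both arrays. The groups were chosen with earlier results of these arrays known, so a share above those is no independent evidence. Of 19 NF-κB pathway genes 1 (5.26%) was at least 2-fold higher and 0 lower. That gene was Nfkbiz, a nuclear cofactor needed for a set of late NF-κB targets, with signals of 334 under vehicle and 1075 under IL-1β and a log2 ratio of 1.47. Tnfaip3 (A20), the deubiquitinase that shuts the pathway, stood at 0.89 and the subunit Nfkb2 at 0.55. Nfkbia, the inhibitor IκBα, had signals of 4499 under vehicle and 4783 under IL-1β, a ratio of -0.12 that is 0.09 as deposited. Relb, Rela and Nfkbie were at -0.24, -0.10 and -0.23. At 6 h the pathway as a list thus lay near the median gene, with a median over 20 measured genes of -0.10, or 0.11 as deposited, against 0.21 as deposited for all measured genes.

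Feedback regulators of other pathways stood out singly. Zc3h12a (Regnase-1), which degrades cytokine mRNAs, had signals of 42.2, 439, 363 and 300.2 in the order vehicle, cytokine alone, cytokine with indomethacin and all 3 agents, a log2 ratio of 3.17 for IL-1β. Of 13 mRNA decay factors it was the gene past 2-fold, and the related Zfp36 and Zfp36l2 stood at -0.09 and -0.96. The median of the 13 was 0.39, and 9 of them had ratios above 0, against 3429 of all 6964 measured genes. Socs3, the inhibitor of signalling by the IL-6 receptor, stood at 1.79, with all 3 of its probe sets between 1.16 and 1.79. Socs1, which limits interferon signals, was at the floor with IL-1β, a bound of at most -0.60. Dusp6, a phosphatase of the kinase ERK, stood at 1.35, Dusp16 at 0.98 and Dusp1 at 0.25. Errfi1 and Spry2, brakes on growth factor receptors, were at 1.05 and 0.84, and Rasa3, a GTPase-activating protein for Ras, at -1.10. Pde4b, which breaks down cAMP, stood at 1.15, and the small GTPase Gem at 1.67.

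Of 40 inducible transcription factors above the floor on both arrays 7 (17.5%) were at least 2-fold higher and 1 (2.5%) lower, and another 3 had bounds past 2-fold. The NR4A orphan receptor Nr4a1 had signals of 34.1, 897, 75.8 and 549 on the 4 arrays in the order given above, and a bound of at least 4.36. Its relative Nr4a2 had a bound of at least 1.86. Ets1, a factor of angiogenic and matrix protease genes, had signals of 85.9, 358, 363 and 225, a ratio of 1.85. The AP-1 factor Fosl1 had a bound of at least 1.90, while Fos, Jun and Junb, which peak within the first hour of many stimuli, stood at 0.17, 0.19 and -0.03. Crem, a factor that answers to cAMP, and Nfil3, a repressor of genes with D-box motifs, stood at 1.56 and 1.51. The early response genes Ier3, Id3, Ier2 and Egr1 were at 1.78, 1.38, 1.09 and 1.07. Cebpd and Cebpb, partners of NF-κB at acute-phase genes, were at 0.86 and 0.56. The lower gene was Irf1, an interferon-responsive factor, with signals of 605 under vehicle and 334 under IL-1β and a ratio of -1.07 (-0.86 as deposited).

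Several cytokine ligands were higher, but apart from Il6 those in this paragraph are bounds. Most of the cytokine receptors lay within 2-fold of the median gene. Of 5 ligands of the IL-6 family on the array, Il6 was above the floor on both arrays and 3 were above it with IL-1β alone. These 3 were Lif with signals of 35 under vehicle and 618 under IL-1β, a bound of at least 3.83, Il11 at a bound of at least 2.51 and Clcf1 at a bound of at least 1.26. Of their receptors Lifr stood at -0.99, the shared signalling chain Il6st at -0.45 and Osmr at 0.17. Of 21 other cytokine ligands on the array 5 were above the floor on both arrays. Of these 5, 0 were at least 2-fold higher and 1 was lower, with a median of -0.78. Another 3 had bounds past 2-fold. Tslp, an alarmin, had signals of 8 under vehicle and 351 under IL-1β and Tnfsf11 (RANKL), which drives osteoclasts, 10.9 under vehicle and 199 under IL-1β. Their bounds were at least 3.01 and 2.19. Csf3, the granulocyte growth factor, was at least 1.16, on an IL-1β signal of 97.4. The stem cell factor gene Kitl stood at -1.0 on its main probe set and at -0.14 on another, and Tnf at -0.83, with signals of 286 under vehicle and 187 under IL-1β. Of 22 cytokine receptors 2 were at least 2-fold higher, the shared chain Csf2rb at 1.46 and the TWEAK receptor Tnfrsf12a at 1.13. Tnfrsf12a stood at 0.16 on its other probe set, and was not past 2-fold with the mean over probe sets or with the one brightest under vehicle.

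Among growth factors too, single ligands were higher. The EGF receptor ligands Ereg and Hbegf had signals of 37.5 under vehicle and 576 under IL-1β, and of 39 under vehicle and 229 under IL-1β. The ratio of Ereg was at least 3.72 and that of Hbegf 2.34, while Egfr itself stood at 0.18. Of 8 genes of the VEGF and angiopoietin group Vegfa was past 2-fold, with signals of 149 under vehicle and 612 under IL-1β and ratios of 1.65 and 1.82 on its 2 probe sets. Its relatives Vegfb, Vegfc and Vegfd were at -0.24, -0.02 and 0.12. Pdgfa stood at 1.03, and its receptors Pdgfra and Pdgfrb at -0.32 and -0.58. Among TGF-β family ligands Tgfb2 stood at 1.66 and Bmp6 at a bound of at least 1.22, against 0.09 for Tgfb1 and -0.51 for Tgfb3. Smad6, an inhibitor of BMP signals, was lower at -1.10, or -0.89 as deposited.

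All 3 neutrophil-attracting CXC chemokines above the floor on both arrays were at least 2-fold higher, of 5 on the array, with signals of 615 under vehicle and 4360.0 under IL-1β for Cxcl5, 652 under vehicle and 3751 under IL-1β for Cxcl1 and 1083 under vehicle and 2966 under IL-1β for Cxcl2, and ratios of 2.61, 2.31 and 1.24. Of 7 other CXC and CX3C genes 0 were higher and 1 lower, Cxcl9, a T-cell chemokine induced by interferon-γ. Its signals were 1168, 371, 688 and 2.9 on the 4 arrays, a ratio of -1.87 for IL-1β. Cxcl10 and Cxcl11, which share its receptor, stood at -0.37 and -0.52. Of 10 CC genes 1 was higher, Ccl20, which attracts cells with the receptor Ccr6, at 2.77.

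**Figure D2:**
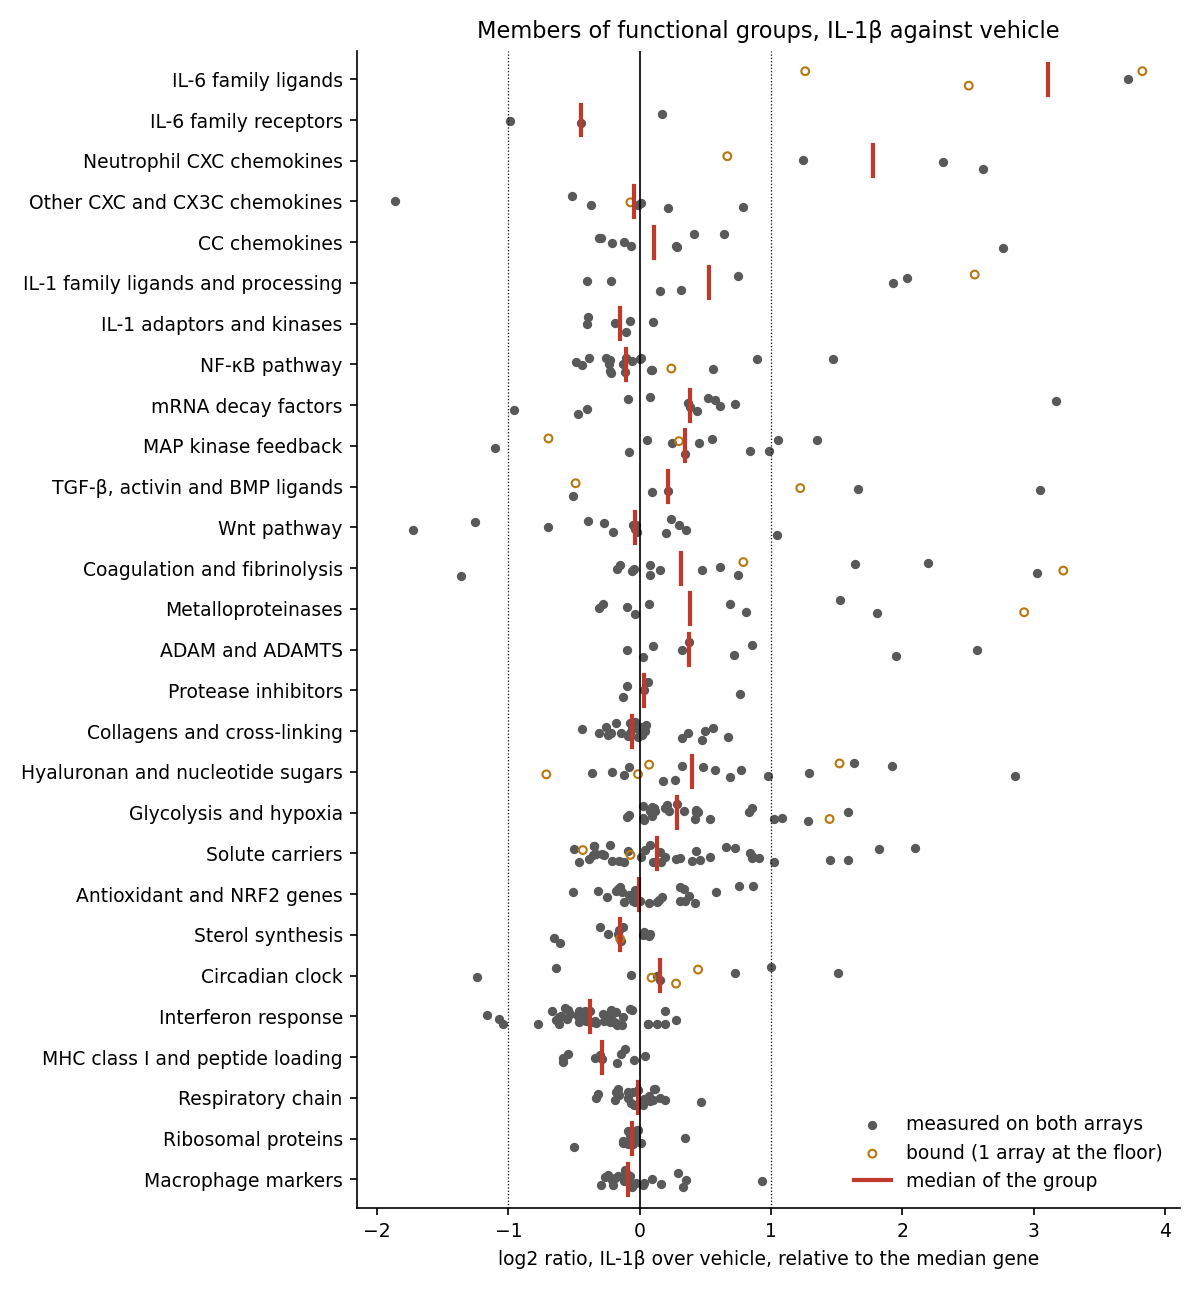
Each point is a measured gene of a functional group, at its log2 ratio of IL-1β over vehicle relative to the median gene on the x axis, with open points for bounds, red bars for group medians and dotted lines at a 2-fold difference. Neutrophil CXC chemokines lie to the right of 0 as a group, and some other groups of ligands and proteases have single members there. Ligands of the IL-6 family lie there too, but 3 of the 4 are bounds that counted as measured only through the IL-1β array. The interferon genes lie mostly to the left of 0, and collagens, ribosomal proteins and the respiratory chain lie close to 0.

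Several genes known as IL-1β targets had high signals with vehicle. Ccl2, the monocyte chemokine, had signals of 4200.0 under vehicle and 5913 under IL-1β, a log2 ratio of 0.28. Vcam1 and Icam1, adhesion molecules for leukocytes, had signals of 2995 under vehicle and 3486 under IL-1β, and of 1330.4 under vehicle and 1654 under IL-1β, with ratios of 0.01 and 0.10. Saa3, an acute-phase protein, had signals of 2396 under vehicle and 4615 under IL-1β, a ratio of 0.73, and Sod2, the mitochondrial superoxide dismutase, of 2796 under vehicle and 4118 under IL-1β, a ratio of 0.35. The brightest probe set with IL-1β had a signal of 7857, and for the 75 measured genes above 3390 with vehicle a 2-fold higher value relative to the median gene would lie above it. Ccl2 and Nfkbia were among them. Whether bright signals were compressed was not tested.

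Coagulation and fibrinolysis genes were found on both sides of the median gene. Of 14 above the floor on both arrays, 3 (21.4%) were at least 2-fold higher and 1 (7.14%) lower. Procr and Thbd (thrombomodulin), the pair of membrane proteins that activate the anticoagulant protein C, had signals on the 4 arrays of 347, 3264, 639.8 and 3097, and of 70.4, 373, 99.9 and 299.7, with ratios for IL-1β of 3.02 and 2.19. F3 (tissue factor), which starts coagulation, had signals of 744, 336, 522 and 231, a ratio of -1.36. Plaur, the urokinase receptor, stood at 1.64, and Serpinb2 had the bound given above. Plat, the tissue plasminogen activator, stood at 0.61, and Tfpi2, a protease inhibitor of the matrix, at 0.75.

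Of 9 metalloproteinases 2 (22.2%) were at least 2-fold higher, Mmp3 and the macrophage elastase Mmp12, beside the bound of Mmp10. Mmp3, a stromelysin that also activates collagenases, had signals of 959, 3891, 3520.0 and 2415, a log2 ratio of 1.81, and Mmp12 stood at 1.53. The collagenase Mmp13 and the gelatinase Mmp9 were at 0.69 and 0.81, and Mmp2 and Mmp14 at -0.03 and 0.07. Of 9 ADAM and ADAMTS genes 2 were higher. The aggrecanase Adamts4 had signals of 150.5, 1034, 912 and 756, a ratio of 2.57, and Adamts1 of 112, 502, 194 and 298, a ratio of 1.95. The other aggrecanase, Adamts5, stood at 0.85. Of 5 inhibitors none reached 2-fold. Timp1 stood at 0.76, Timp2 at -0.10 and Timp3 at 0.03. The 12 measured cathepsins had ratios from -0.18 to 0.09.

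Structural matrix genes lay close to the median gene, with single exceptions. Of 18 collagen chains 0 were past 2-fold in either direction, with ratios from -0.44 for Col6a3 to 0.67 for Col4a5. Tnc (tenascin-C), a glycoprotein of inflamed and healing matrix, had signals of 375, 1368, 1039 and 857, a ratio of 1.66, and was the gene past 2-fold among 38 glycoproteins and proteoglycans. Prg4, which encodes lubricin, stood at 0.45, Tgfbi at 0.69 and fibronectin Fn1 at -0.16. Gja1 (connexin 43), the gap junction channel, had signals of 681 under vehicle and 2458 under IL-1β, a ratio of 1.64. Of 16 contractile genes 0 were past 2-fold, and Cnn1 (calponin) was the lowest at -0.93.

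Of 10 enzymes that supply nucleotide sugars, the building blocks of hyaluronan and other glycosaminoglycans, 3 (30%) were at least 2-fold higher and 0 lower. Gfpt2, which makes glucosamine phosphate from fructose phosphate, had signals of 103, 451, 187 and 486 on the 4 arrays, a log2 ratio of 1.92 for IL-1β. Uap1, which makes UDP-N-acetylglucosamine, had signals of 256, 2156, 248 and 2689, and ratios from 2.86 to 2.98 on its 3 probe sets above the floor. Ugdh, which makes UDP-glucuronic acid, had signals of 581, 2086, 860.0 and 2224, a ratio of 1.63. With indomethacin the signal of Uap1 was close to that with vehicle, while those of Gfpt2 and Ugdh lay between vehicle and IL-1β. Gnpnat1 and Gfpt1 were at 0.77 and 0.57. Of the 12 measured enzymes of this kind, bounds included, 7 lay above 0 and 5 below, the lowest at -0.71. The synthases Has1 and Has2 were at a bound of at least 1.52 and at 0.98. Tnfaip6 (TSG-6), which links hyaluronan to protein, stood at 1.29 and Vcan (versican) at 0.69. Outside the list and picked after their values were seen, the chondroitin enzymes Csgalnact1 and Chst11 were at 1.26 and at least 1.17, and Cemip, which takes part in the breakdown of hyaluronan, at 1.27.

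Of 38 solute carriers 5 (13.2%) were at least 2-fold higher and 0 lower. Slc7a11, which imports cystine for glutathione, had signals of 85.4, 423, 239.6 and 422, a log2 ratio of 2.10. Slc20a1, a phosphate importer, had signals of 237, 969.8, 701 and 787, a ratio of 1.82. Slc16a1, a lactate transporter, had signals of 265 under vehicle and 922 under IL-1β, a ratio of 1.59. Slc39a14 (ZIP14), which takes up zinc and iron, stood at 1.45 and the glucose transporter Slc2a1 at 1.02, with another probe set at 0.85. Slc41a2, a magnesium carrier outside the list picked in the same way, stood at 1.05. Among iron genes the metalloreductase Steap4 stood at 1.74, and Lcn2, which binds iron-carrying siderophores, at 2.89 with signals of 84.1 under vehicle and 723 under IL-1β. The metallothioneins Mt1 and Mt2 were at -0.06 and 0.03, and the ferritin chain Fth1 at -0.05.

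Glucose and lipid enzymes showed few large ratios, but most genes of glycolysis and hypoxia lay above the median gene. Of 27 measured in this group 25 had ratios above 0, against 3429 of all 6964 measured genes. Of the 26 above the floor on both arrays 4 (15.4%) were at least 2-fold higher and 0 lower. The 2 of 17 glycolysis genes past 2-fold were the transporters Slc16a1 and Slc2a1 given above. Hk2, the inducible hexokinase, stood at 0.83 and Ldha at 0.28. The 2 measured genes of the group below 0 were enolase Eno2 and Pfkp, at -0.10 and -0.08. The hypoxia targets Ndrg1 and Ddit4 stood at 1.28 and 1.08, and the lipid droplet gene Hilpda at a bound of at least 1.45. Dgat1, the last enzyme of triglyceride synthesis, had signals of 51.1, 157, 66.2 and 231, a ratio of 1.40. Acsl4, which activates arachidonic acid, stood at 1.37, and Olr1, a receptor for oxidised LDL, at a bound of at least 1.76. The 13 sterol genes had a median of -0.15, with Fdft1 at -0.66 and Lss at -0.61. Their median was 0.06 as deposited. Upp1, which splits uridine, had signals of 51.1, 264, 193 and 182, a ratio of 2.15. Of 28 antioxidant genes 0 were past 2-fold, with Nqo1 highest at 0.87.

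Of 13 prostanoid genes 1 (7.69%) was at least 2-fold higher and 0 lower, and another had a bound. Ptgs2, the inducible cyclooxygenase that indomethacin inhibits, had signals of 457, 3798, 2547 and 2579 on the 4 arrays, with ratios for IL-1β of 2.84 and 3.40 on its 2 probe sets. The enzymes before and after it had smaller ratios, 0.93 for the phospholipase Pla2g4a, 0.87 for the prostaglandin E synthase Ptges and 0.41 for the prostacyclin synthase Ptgis. Ptger2, a receptor for prostaglandin E2 that raises cAMP, had signals of 17.8, 131, 84.2 and 73.7, a bound of at least 1.58 for IL-1β. The prostacyclin receptor gene Ptgir, the target of iloprost, stood at -0.13, with signals of 159 under vehicle and 168 under IL-1β.

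Of 31 neuropeptide, neurotrophin and vasoactive peptide genes on the array 6 were above the floor on both arrays, and 1 of these, Penk, was at least 2-fold higher. Penk, the precursor of the opioid enkephalins, had signals of 103, 983, 351 and 917, a log2 ratio of 3.05 for IL-1β. Bdkrb1, the inducible bradykinin receptor of inflamed tissue, had signals of 32.3, 144, 116 and 84.1, a bound of at least 1.73, while the constitutive receptor Bdkrb2 was at a bound of at least 0.12. Ramp3, which pairs with Calcrl to make an adrenomedullin receptor, had signals of 22, 117, 5.4 and 508, a bound of at least 1.42. Calcrl itself and adrenomedullin (Adm) stood at -0.06 and 0.43. Rdh10, which starts the making of retinoic acid from retinol, had signals of 102, 384, 88.7 and 424, a ratio of 1.70. The retinoic acid receptor Rarg was lower, with ratios of -1.07 and -0.79 on its 2 probe sets, the former -0.86 as deposited. Stc1 (stanniocalcin), a glycoprotein hormone, had signals of 32.7, 206, 35.9 and 224, a bound of at least 2.24.

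Outside the lists, 4 further genes of hormone and ligand sensing past 2-fold were picked after their values were seen. Dio2, the deiodinase that activates thyroid hormone, had signals of 43.7, 127, 46.1 and 185, a log2 ratio of 1.33. Vdr, the vitamin D receptor, had signals of 29.7, 106, 12.7 and 136, a bound of at least 1.28. Ahr, the aryl hydrocarbon receptor, stood at 1.20, on signals of 233, 622, 572 and 693. Ackr3, a scavenging receptor for the chemokine Cxcl12, had signals of 193, 609.6, 216 and 686, a ratio of 1.45. Dio2, Vdr and Ackr3 had signals with indomethacin near or below those with vehicle, and Ahr did not.

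Among genes in no list, 31 of 5552 above the floor on both arrays (0.558%) were at least 2-fold higher and 14 (0.252%) lower, with another 11 and 7 as bounds. Kcne4, a subunit that dampens potassium channels, had signals of 43.4, 260.1, 62.8 and 208 on the 4 arrays, a log2 ratio of 2.37 for IL-1β. Pkdcc, a secreted tyrosine kinase of skeletal growth, had signals of 66, 347, 70.3 and 325, a ratio of 2.18. The membrane protein gene Tm4sf1 had signals of 195, 901, 655 and 1010.1, a ratio of 2.0, and Nabp1, a single-stranded DNA-binding protein, of 96.3, 457, 239 and 297, a ratio of 2.03. Tcim had signals of 21.7, 264, 134 and 224, a bound of at least 2.60, and Lmcd1, a LIM-domain protein, of 30.8, 225, 375 and 104, a bound of at least 2.37. Lmcd1 was brighter with indomethacin than with IL-1β alone, while Kcne4 and Pkdcc were close to vehicle there. Medag, Pvr (the poliovirus receptor, an adhesion protein) and Sphk1 (a sphingosine kinase) stood at 1.66, 1.59 and 1.45. All 5 probe sets of Pvr above the floor had ratios from 1.45 to 2.04. Cytip, a regulator of integrin adhesion in leukocytes, had signals of 26.2, 119, 31.2 and 1876, so that its value with iloprost exceeded its value with IL-1β alone.

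**Figure D3:**
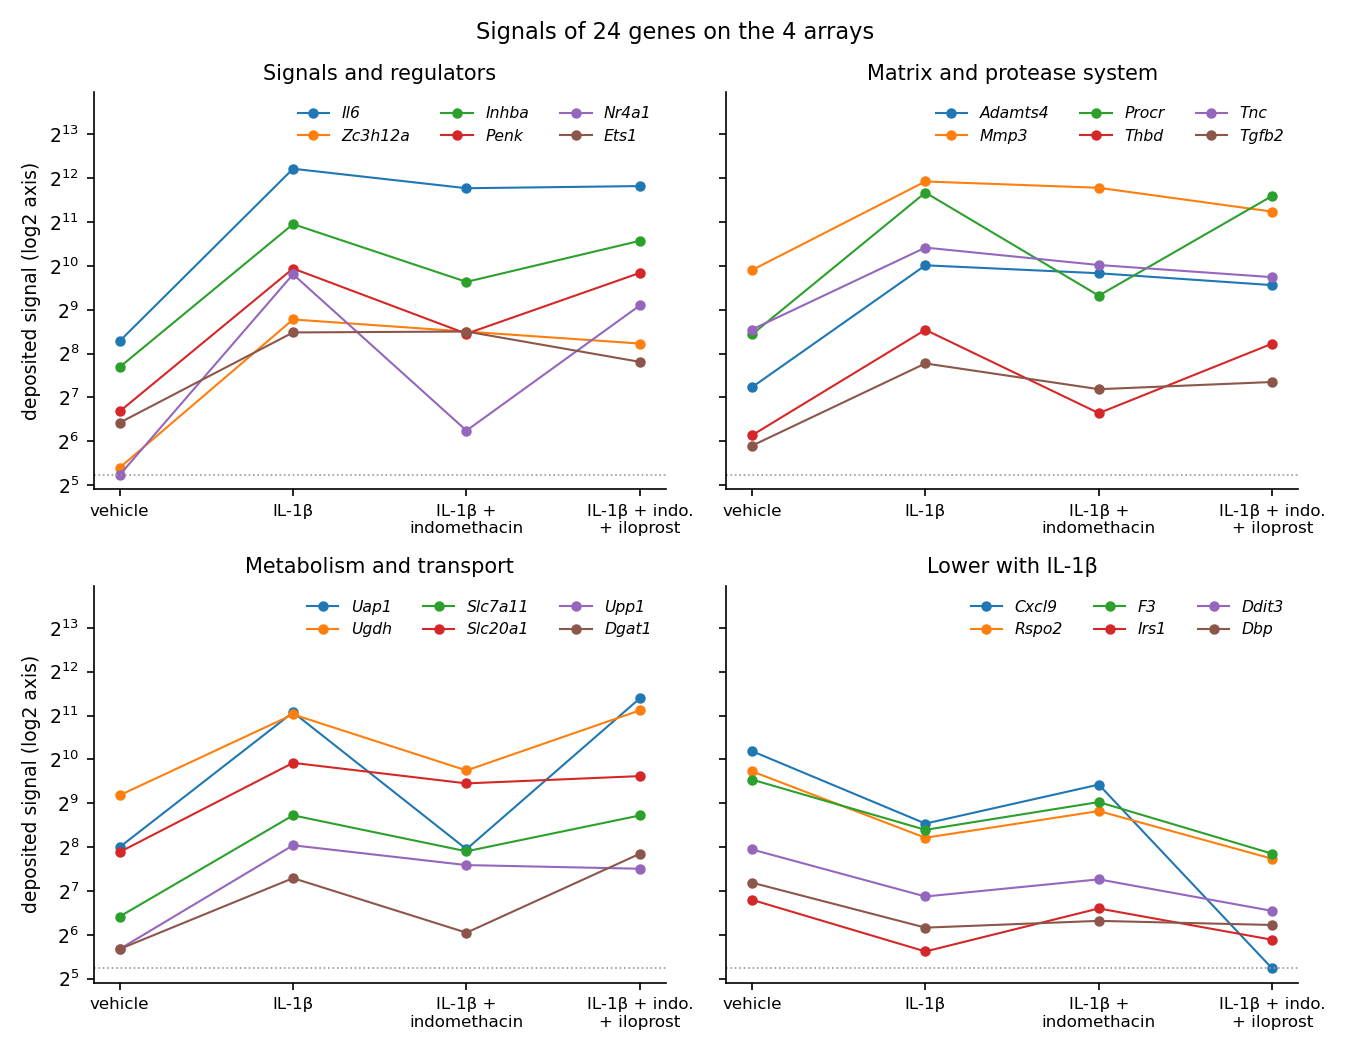
The deposited signals of 24 genes on the 4 arrays, on a log2 axis, with 1 array for each treatment and signals below the floor (dotted line) drawn at the floor. Lines join the arrays of a gene, and levels of different genes are not on 1 scale. The 18 genes of the upper panels and of the lower left panel had higher signals with IL-1β than with vehicle, and the 6 genes of the lower right panel had lower ones.

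The lower genes included members of the Wnt and IGF pathways, which guide growth and lineage in connective tissue. Rspo2 (R-spondin 2), which strengthens Wnt signals, had signals of 849, 297, 453 and 213 on the 4 arrays, a log2 ratio of -1.73 for IL-1β. The Wnt receptor Fzd2 had signals of 84.6, 41.1, 34 and 69.9, a ratio of -1.25, and its relative Fzd7 stood at -0.70. Wnt5a, a ligand that acts mostly outside the β-catenin route, was higher, with signals of 47.2, 113, 57 and 86.8 and a ratio of 1.05. The remaining 12 of 15 measured Wnt genes were within 2-fold, with β-catenin (Ctnnb1) at -0.02. Irs1, the adaptor of the insulin and IGF receptors, had signals of 111, 49.2, 97.1 and 59.2, a ratio of -1.39, next to 0.58 for Igf1r and -0.05 for Igf1. Snai2, a factor of mesenchymal identity that is in no list, had signals of 109, 30.2, 61.3 and 34.3, a bound of at most -1.74, while its relative Snai1 stood at 0.20.

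Further lower genes belong to stress and cell death. Ddit3 (CHOP), the factor that couples protein stress to death, had signals of 247, 117, 154 and 93.4, a log2 ratio of -1.29. Casp12, a caspase of the endoplasmic reticulum, had signals of 146, 68.3, 102 and 49.7, and ratios of -1.31 and -1.21 on its 2 probe sets. The other 43 of 45 genes of the unfolded protein, amino acid and heat-shock responses were within 2-fold, with the partner factor Atf4 at -0.02 and the chaperone Hspa5 at 0.18. The death genes Bbc3 (PUMA), Gadd45a and Bid were below the median gene, at -0.76, -0.72 and -0.66. Bcl2l1, which protects from death, stood at 0.75. The 19 pro-apoptotic genes above the floor on both arrays had a median of -0.13. Over the 21 measured the median was -0.14, or 0.07 as deposited. Phlda1 was the member above 2-fold, with signals of 159.9, 677, 457 and 348 and a ratio of 1.87.

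The activator and the repressor of D-box genes, which carry output of the circadian clock, lay on opposite sides of the median gene. Dbp, an activator at D-box motifs that cycles with the clock, had signals of 146, 71.7, 79.8 and 74.8, a log2 ratio of -1.24. Nfil3, the repressor at the same motifs, had signals of 64.4, 212, 56.9 and 174, a ratio of 1.51. Tef, an activator like Dbp, stood at -0.63 and -0.20 on its 2 probe sets above the floor. Of the core clock genes Arntl (BMAL1) stood at 1.0, on signals of 45.8, 106, 64 and 83.4, and Clock at 0.13. With 1 time point, a shift of phase and a difference in level cannot be told apart.

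Interferon-response genes lay below the median gene as a group. Of 47 measured, 41 had ratios below 0, against 3535 of all 6964 measured genes, and the median was -0.38. None was at least 2-fold higher and 3 (6.38%) were at least 2-fold lower, against 0.531% of all measured genes. On the scale as deposited the median was -0.17 and none of the 3 lower genes passed 2-fold. Mx1, an antiviral GTPase, had signals of 465, 241, 317 and 30.1 on the 4 arrays, a ratio of -1.16 for IL-1β, and Mx2 of 147, 82.8, 116 and 21.8, a ratio of -1.04. Irf1 was the remaining gene past 2-fold. The groups of antiviral effectors, of GTPases and of IRF and STAT factors had medians of -0.38, -0.38 and -0.36. Genes of peptide loading on MHC class I were below the median gene too, with Tap1 at -0.58 and the immunoproteasome subunits Psmb9 and Psmb10 at -0.55 and -0.58. The class I chains H2-K1 and H2-D1 stood at -0.11 and -0.15. All 11 class I genes had a median of -0.29, which is -0.08 as deposited.

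Other genes in no list were lower by about 2-fold. Ccn5 (WISP2), a matricellular protein, had signals of 785, 449, 404 and 715, a log2 ratio of -1.02. Phldb2, which anchors microtubules at adhesion sites, had signals of 427, 237, 265 and 271, a ratio of -1.06, and the Golgi protein gene Yipf5 of 896, 494, 682 and 804, a ratio of -1.07. The other probe set of Yipf5 stood at -0.05. Gas1, a membrane protein of growth arrest, and the zinc finger gene Zfp521 stood at -0.93 and -1.13. Nfix, a factor of connective tissue development, stood at -0.91 on its main probe set and at -1.06 and -1.15 on others. As deposited, Ccn5, Phldb2, Yipf5, Gas1, Zfp521 and Nfix were all within 2-fold. Tmem140, Batf2 and Slamf7, which were at -1.02, at most -1.05 and at most -1.03, had signals with iloprost of 175, 12.3 and 9.9, all below those with vehicle. Without regard to lists, the 30 lowest ratios of genes at 113.2 or more on the brighter array, bounds aside, held further genes. Ctps2 and Ppfibp2 stood at -1.08, Mettl7a1 at -1.05 and Rgs18 at -1.01. Ssbp2, Grb14, Cbx6 and Il18bp stood at -0.98, -0.95, -0.93 and -0.92. Fen1 stood at -0.99 and 0.23 on its probe sets, and Tmem38b at -0.84 and -0.04.

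Large parts of the cell's machinery lay close to the median gene. The 16 measured ribosomal proteins had ratios from -0.50 for Rps27 to 0.35 for Rps6, with a median of -0.06. The 23 genes of the respiratory chain ran from -0.33 for Atp5o to 0.46 for cytochrome c (Cycs), with a median of -0.01. Of 20 genes of S and M phase 0 were past 2-fold, with a median of -0.10. Complement genes had a median of -0.10 over 16 measured, with C1qb at -0.21 and factor B (Cfb) at 0.33. Of 16 pattern recognition genes 1 was past 2-fold, Clec2d, a ligand of inhibitory receptors on natural killer cells, at -1.13.

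Probe sets of 1 gene gave a check within the arrays. Of the 124 higher genes 28 had more than 1 probe set above the floor on both arrays, and all probe sets of all 28 had ratios above 0. In 19 of them every such probe set passed 2-fold. Of the 37 lower genes 6 had several such probe sets, all with ratios below 0, and in 2 every one passed 2-fold. In Tnfrsf12a, Kitl and Yipf5 the second probe set lay within 0.2 of the median gene. The highest-ratio genes Il6, Inhba, Procr and Zc3h12a rest on 1 probe set each.

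Searched motifs were more frequent in the promoter windows of some gene sets than of others. RefSeq windows of 300 bases were matched for 88 of the 124 higher genes, 26 of the 37 lower genes and 5694 of the 6964 measured genes, and both strands were searched. The AP-1 motif TGANTCA was in windows of 19 higher genes (21.6%), of 5 lower genes (19.2%) and of 371 measured genes (6.52%). The C/EBP motif TTGCNNAA was in those of 23 higher genes (26.1%), of 5 lower genes (19.2%) and of 603 measured genes (10.6%). Both motifs thus had higher shares in the higher and in the lower genes than in all measured genes. The kB motif was in windows of 12 higher genes (13.6%), 1 lower gene (3.85%) and 439 measured genes (7.71%). The interferon motif ISRE (GAAA, any 2 bases, GAAA) was in those of 3 higher genes (3.41%), 3 lower genes (11.5%) and 235 measured genes (4.13%). The D-box motif TTANGTAA was in those of 5 higher genes (5.68%), 0 lower genes and 112 measured genes (1.97%), and the cAMP motif CRE, TGACGTNA, in 5 (5.68%), 0 and 332 (5.83%). Over all 32851 windows of the table, 5.56% held kB, 7.81% AP-1, 2.93% CRE, 3.44% ISRE, 2.32% D-box and 10.8% C/EBP. Windows per gene were 1.35, 1.46 and 1.29 in the 3 sets, and a gene counts once if any of its windows holds the motif. The lower set is small, so that 1 gene moves its share by 3.85 percentage points, and no test was made.

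**Figure D4:**
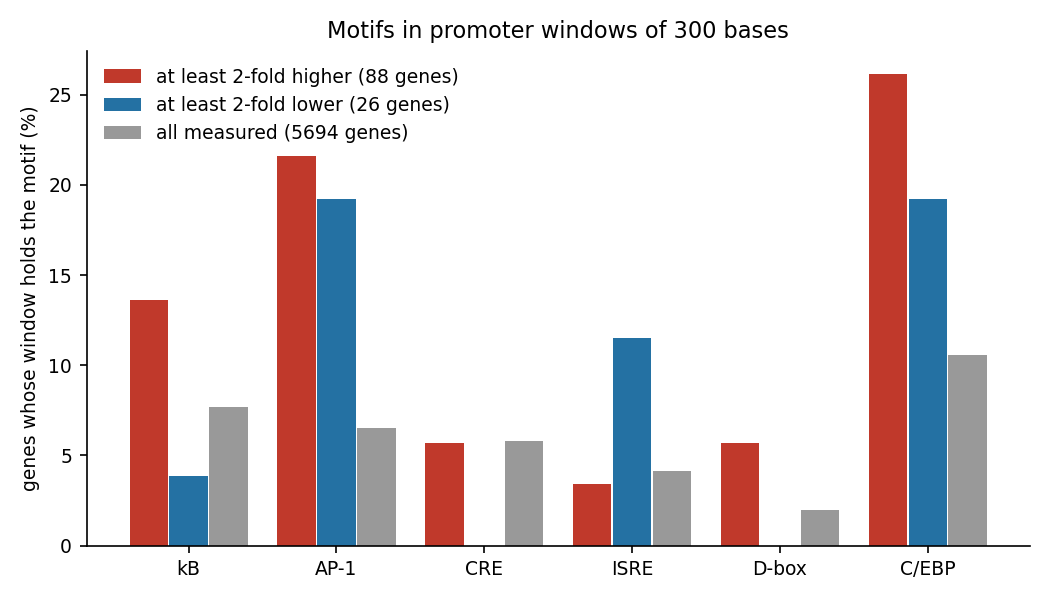
The percentage of genes whose promoter window of 300 bases holds each of 6 motifs on either strand, for 88 genes higher by 2-fold or more (red), 26 genes at least 2-fold lower (blue) and 5694 measured genes (grey). AP-1 and C/EBP have higher bars in both called sets than in all measured genes, and kB in the higher set.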

How the data were processed

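RNA of 4 dishes was measured on 1-colour Affymetrix arrays, 1 per treatment. The authors deposited a linear intensity for every probe set on every array. Which software summarised the probes, and with what scaling, is not given in the sources used here. Precision is limited by the number of arrays, and no depth applies. The values used were those deposited for each array.

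Of 22690 probe sets, 20380 name 1 gene in the platform's annotation, 691 name several, 1606 are unnamed here and 13 name 1 gene but are controls. All 64 controls were left out, and Gapdh with them. Symbols were checked against RefSeq's table of GRCm38.p6, with 0 changed. Signals below 37.6 were set to it before log2. Where a gene had several probe sets, the brightest by mean log2 signal stood for it. Genes are counted at a 2-fold difference from the median gene. Scripts used Python 3.11.15, numpy 2.4.6, pandas 2.3.3 and matplotlib 3.10.9, and were tested on simulated data.

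The genes described and 53 lists (46 functional, 7 of cell markers) were chosen with earlier results of these data known. The lists hold 1532 entries, of which 1346 are on the array and 1004 were measured. The genes named were taken from the following groups, not all of whose members are named. The first group held the 30 highest and 30 lowest ratios that are no bound, with 113.2 or more (the 70th percentile) on the brighter array. Others were up to 15 bounds a direction of at least 4-fold over the floor, and list members past 2-fold. The rest were up to 5 further members a list, the receptor chains, NF-κB subunits and markers. Other named genes were chosen after their values were seen. Alternatives were the scale, the floor, the choice of probe set, the fold and the use of bounds.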

Additional observations from a re-analysis of the deposited data

How the results depend on the processing

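The counts of 124 higher and 37 lower genes depend on the scale and the floor. As deposited they were 195 and 11, with a floor at the 35th percentile 192 and 99, with a floor at the 65th percentile 84 and 14, and at 1.5-fold 335 and 245. Quantile normalization gave 129 and 31, centring on the added control transcripts 105 and 50, log2(value + 16) without a floor 122 and 25, the mean over probe sets 115 and 34, the probe set brightest with vehicle 119 and 37, and genes above the floor on both arrays alone 91 and 30. The share of higher among called genes ran from 57.8% at 1.5-fold, and at 2-fold from 66.0% with the lower floor, to 94.7% as deposited. Of the 124 higher genes 84 stayed with the floor at the 65th percentile, 91 without bounds and 105 or more in the other 2-fold settings. Of the 37 lower genes 11 stayed as deposited, 14 of 25 measured with the floor at the 65th percentile, 19 with log2(value + 16), 30 without bounds and 31 or more in the others. None of the genes past 2-fold took the opposite direction in a setting, where genes with a bound in that setting were not counted. The scale as deposited and the control transcripts shift all genes alike by too little to turn such a gene. The median of 24 of 48 lists changed sign, 13 of them, such as the NF-κB pathway, only through the scale as deposited or the control transcripts, which shift all genes alike, while the interferon median stayed below 0 (-0.46 to -0.17). No paired analysis was possible because each group has 1 array. Signals near the floor limit what low genes show.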
